A study of Drosophila melanogaster with 18 samples.

Results

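The translation initiation and elongation factors of Drosophila melanogaster were followed in ovaries of an LP ("Low Plasticity") and an HP ("High Plasticity") inbred line. The genes were chosen by name. All protein-coding genes whose FlyBase symbol starts with eIF or eEF were taken, which gave 52 genes of the 17611 in the table, 44 named eIF and 8 named eEF. Both lines are wild type per the labels, and the tissue is given as ovary stages 1 to 7. Each line had 3 states with 3 libraries each, labelled as biological replicates. Diapause ovaries came from flies in reproductive arrest at 12 °C, reproductive ovaries from flies that went on reproducing at the same 12 °C, and age-control ovaries from 28-day-old flies at 25 °C. The age of the flies at 12 °C is not given in the sources used here. Diapause against reproductive ovaries is thus a comparison within 1 temperature, whereas in either state against the age control the temperature, the state and possibly the age differ together and cannot be told apart.

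Initiation factors bring the small ribosomal subunit, the initiator tRNA and the messenger RNA together. The eIF2 complex carries the initiator tRNA and is recharged with GTP by eIF2B. The eIF3 complex binds the small subunit, and eIF4E, eIF4G and eIF4A, the cap-binding protein, the scaffold and the helicase, bring in the messenger. The elongation factors eEF1alpha and eEF2 deliver each aminoacyl-tRNA and move the ribosome by a codon, with the eEF1beta, eEF1gamma and eEF1delta proteins as the exchange partners of eEF1alpha. In the ovary, nurse cells make large amounts of ribosomes and messenger RNA for the egg.

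The genes lie on all the larger chromosomes, with 5 on 2L, 13 on 2R, 11 on 3L, 15 on 3R, 7 on X and 1, eIF4G1, on chromosome 4. By role, 16 code for eIF3 subunits, 8 for elongation factors, 7 for cap-binding proteins, 6 for eIF4A, eIF4B, eIF4G and eIF4H proteins, 5 for eIF2B subunits, 3 for eIF2 subunits, 5 for factors of scanning and subunit joining, and 2, eIF2A and eIF2D, for proteins that bring initiator tRNA in other ways. A filter on low counts kept 43 of the 52 for testing. The 9 that it removed, eIF3d2, eIF3f2, eIF3g2, eIF4E3, eIF4E4, eIF4E5, eIF4E6, eIF4E7 and eIF4H2, are described by their counts further on. The 43 passed by their counts in some of the libraries, so that counts over them do not stand for all 52.

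The libraries held 14352846 to 21343992 counts. The germline list (7 genes found, among them vas, otu and osk) summed to between 1920 and 3310 CPM (counts scaled by TMM for library depth) in every library, so that the markers of the labelled tissue were present. Eggshell genes, which follicle cells use in later egg chambers than those labelled, summed to 2080 ± 1490, 5660 ± 585 and 14300 ± 2300 CPM in LP diapause, reproductive and age-control ovaries (SD, n = 3 each). The corresponding sums in HP were 385 ± 56.3, 1890 ± 502 and 7310 ± 2490 CPM. LP diapause replicate 2 stood apart with 3810 CPM, against 1220 CPM in both other replicates. The fat body list stayed at or under 43.3 CPM in every library. The LP age-control replicate 2 also stands apart, as shown with the low-count genes, and the counts of called factors that use it are also given without it. Without it the named factors kept their calls in LP diapause against age control except for eIF5, and the log2 fold changes of those called moved by at most 0.11. In LP reproductive against age control the only named call lost was that of eEF1alpha2. In bulk ovaries, fewer cells of a type and less RNA per cell cannot be told apart.

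As a group the factors were among the more abundant transcripts of the ovary. Levels between genes are compared as RPKM, the read count scaled by TMM for library depth and divided by exon length. The median of the 43 genes' mean levels was 239 RPKM, against 16 RPKM over the 9037 genes tested and 2200 RPKM for the 87 cytosolic ribosomal protein genes tested. Of the 43, 37 lay above the median of all tested genes. The elongation factors headed the order. eEF1alpha1 (2R, 11891135 to 11895762), which delivers aminoacyl-tRNA, had a mean of 6940 RPKM, and eEF2 (2L, 21677913 to 21682164), the translocase, had 2750 RPKM. They were followed by eEF5, the factor known as eIF5A in other species, which carries the hypusine residue, with 2430 RPKM. eEF1gamma had 1800 RPKM and eEF1beta 1160 RPKM. The helicase gene eIF4A, with 1110 RPKM, was the highest of the initiation factors.

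Within each of the eIF3, eIF2 and eIF2B complexes the tested subunits differed less in level than the messenger-side factors did. The 13 eIF3 subunits that were tested averaged between 165 and 383 RPKM, with eIF3j lowest and eIF3b highest in each of the 6 groups. In LP diapause ovaries their range was 172 to 408 RPKM, and in LP age-control ovaries it was 132 to 320 RPKM. The 5 eIF2B subunits lay lower together, with means between 36.5 and 52.1 RPKM. Of the eIF2 subunits, eIF2beta was the highest in each group (405 RPKM in LP diapause) and eIF2gamma the lowest (163 RPKM in the same ovaries). The messenger-side factors differed more. The cap-binding gene eIF4E1 averaged 393 RPKM and the scaffold eIF4G1 133 RPKM, whereas eIF4B, a helicase cofactor, averaged 4.41 RPKM. The selenocysteine factor eEFSec averaged 6.18 RPKM and the second eEF1alpha gene, eEF1alpha2, 1.43 RPKM. The ratio of the highest to the lowest of the 18 libraries was smallest for eEFSec (1.34) and eIF4E1 (1.36). It was 2.72 for eIF6 and 7.98 for eEF1alpha2.

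**Figure D1:**
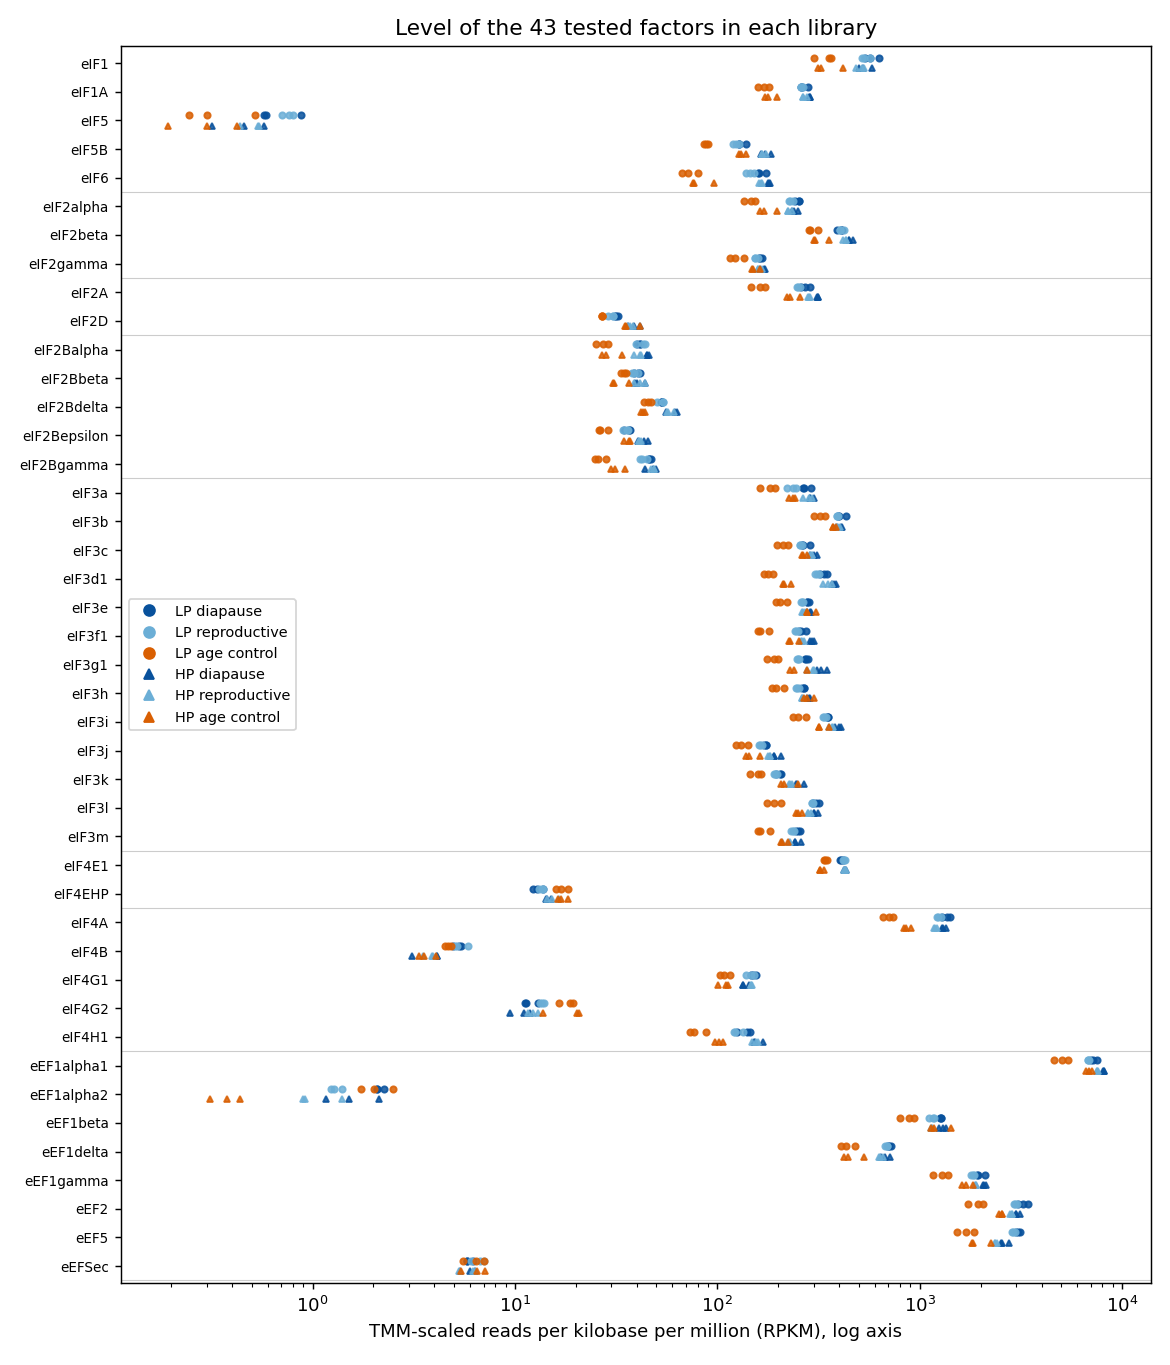
Level of each of the 43 tested factors in each of the 18 libraries, in TMM-scaled RPKM on a log axis, ordered by role (grey lines part the roles); circles are LP and triangles HP libraries, coloured by state. eEF1alpha1 lies farthest right at 4630 to 8110 RPKM, and most genes have their age-control libraries to the left of the others.

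Some levels are uncertain because the counted exons are shared. eIF5 (X, 15987008 to 15991974), the partner that makes eIF2 hydrolyse its GTP, has 2588 of its 3203 exonic bases in common with CG46312 on the same strand. CG46312 is listed at 0 in every library. The 13 to 54 counts of eIF5 per library, a mean of 0.51 RPKM, therefore give no reading of its level. Over 10% of the exonic bases are also shared in eIF3h (16.8%, with senju on the opposite strand), eIF2gamma (16%, with Su(var)3-9 on the same strand) and eIF2alpha (12.6%, with rngo on the opposite strand). eIF4G2 shares 8.56% and eIF4EHP 6.96% with genes on the same strand. Whether the counting used strand is not given in the sources used here.

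Diapause ovaries held more transcript of most factors than age-control ovaries in both lines. In LP 38 of the 43 were higher and 2 lower, and in HP 33 were higher and 2 lower. Over all 9037 genes 71.9% were called in LP (36.6% higher, 35.3% lower) and 68.6% in HP (34% higher, 34.7% lower). Calls over all genes were thus split about evenly by direction, whereas the factors' calls were nearly all upward. The median log2 fold change of the 43 was 0.54 in LP and 0.33 in HP, against 0.03 and 0.01 over all genes. Of the factors, 32 were higher in both lines, 6 in LP alone and 1, eEF1alpha2, in HP alone. Only eIF4G2 and eIF4EHP were lower, in both lines, and eIF4B and eEFSec were called in neither. The libraries of the states did not overlap for 41 factors in LP and 35 in HP, against 75.5% and 69.3% of all genes. As a share of all counts, the 52 genes took 4.98% ± 0.139 in LP diapause, 4.79% ± 0.0347 in LP reproductive and 3.81% ± 0.195 in LP age-control ovaries (SD, n = 3 each). In HP the shares were 5.19% ± 0.0354, 4.97% ± 0.0171 and 4.68% ± 0.115, in the same order of states. In both lines the shares of the 3 states did not overlap. These shares lean on the most abundant genes, with 5818837 counts of eEF1alpha1 and 2853435 of eEF2 over the 18 libraries. Cytosolic ribosomal protein genes moved the same way, with 87 of 87 higher and a median of 1.00 in LP, and 85 of 87 higher and a median of 0.55 in HP.

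**Figure D2:**
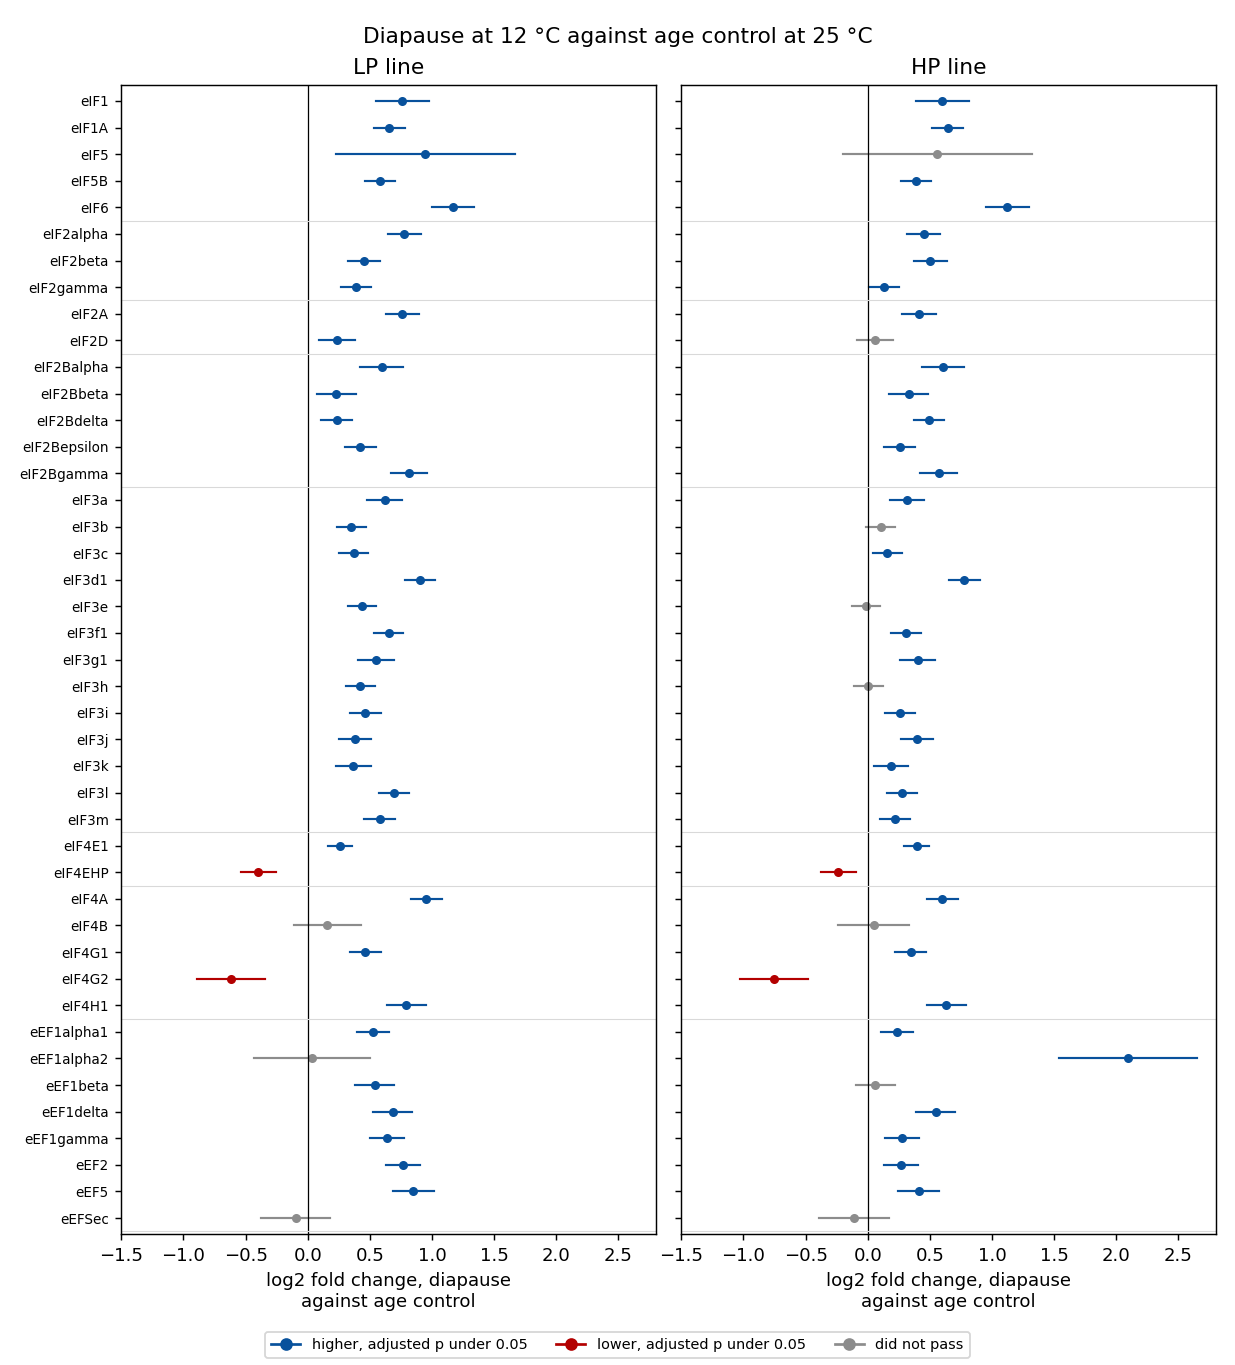
Log2 fold change of each tested factor in diapause (12 °C) against age-control (25 °C) ovaries, in LP (left) and HP (right), with 95% intervals from the model; blue is higher and red lower at an adjusted p under 0.05, grey did not pass. Nearly all points lie right of 0, eIF4G2 and eIF4EHP lie left of it in both lines, and eEF1alpha2 lies near 0 in LP but at 2.10 in HP.

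Among the factors of scanning and subunit joining, eIF6 rose most. eIF6 (2R, 23849246 to 23850301) keeps the large ribosomal subunit from joining too early and is needed to make it. It had 184, 169 and 168 CPM in LP diapause ovaries, against 85, 75.8 and 71 CPM in LP age-control ovaries. In HP it had 188, 193 and 191 CPM in diapause, against 79.8, 101 and 81.1 CPM in the age control. All diapause libraries lay well above all age-control libraries, and the log2 fold change was 1.17 in LP (SE 0.08, adjusted p = 5.1e-11) and 1.12 in HP (SE 0.08, adjusted p = 1.5e-10). eIF1A, which helps the small subunit scan for the start codon, had 482, 448 and 453 CPM in LP diapause and 311, 293 and 273 CPM in LP age-control ovaries. HP ovaries had 492, 490 and 493 CPM in diapause and 307, 341 and 294 CPM in the age control. Its groups did not overlap in either line (log2 fold change 0.66 in LP and 0.65 in HP, SE 0.06 each). The start-codon fidelity factor eIF1 (0.76 in LP, 0.60 in HP) and the subunit-joining GTPase eIF5B (0.58 and 0.39) were also higher in both lines. eIF5 was called in LP (0.95, SE 0.33, adjusted p = 0.015), with the reservation on its counts given above, and not in HP (0.56, adjusted p = 0.16). Its LP call was lost with total counts and without LP diapause replicate 1 or LP age-control replicate 2 or 3 (adjusted p between 0.051 and 0.093).

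The initiator tRNA complex and its exchange factor were higher throughout. The 3 eIF2 subunits and the 5 eIF2B subunits all passed in both lines. eIF2alpha (X, 16445176 to 16446993), the subunit that stress kinases phosphorylate, had 383, 368 and 386 CPM in LP diapause and 233, 223 and 207 CPM in LP age-control ovaries (log2 fold change 0.78, SE 0.06, adjusted p = 6e-10). In HP it had 362, 381 and 357 CPM in diapause and 259, 299 and 248 CPM in the age control (0.45, SE 0.06, adjusted p = 1.7e-06). The libraries of the 2 states were separate in both lines, with the narrower gap in HP. eIF2Bgamma showed the largest LP change of the exchange factor (0.81 in LP, 0.57 in HP), and eIF2Bdelta had 0.23 in LP and 0.49 in HP. eIF2gamma changed least of the eIF2 subunits (0.39 in LP, and 0.13 in HP with an adjusted p of 0.04). eIF2A was higher in both lines (0.76 and 0.41) and eIF2D passed in LP alone (0.24, against 0.06 in HP).

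In the eIF3 complex all 13 tested subunits rose in LP, by 0.35 to 0.90, whereas 10 of 13 rose in HP. eIF3d1 (3R, 23680039 to 23682317), whose human counterpart can bind the cap of some messengers, rose most in both lines. It had 678, 646 and 697 CPM in LP diapause and 380, 358 and 344 CPM in LP age-control ovaries (log2 fold change 0.90, SE 0.06, adjusted p = 1.9e-11). In the HP line the gene had 772, 760 and 740 CPM in diapause and 431, 467 and 426 CPM in the age control (0.78, SE 0.06, adjusted p = 2.4e-10). Each diapause library thus lay above every age-control library of its line. The 3 subunits that did not pass in HP were eIF3b (0.10), eIF3e (−0.01) and eIF3h (0.01). eIF3e had 420, 440 and 436 CPM in HP diapause and 422, 465 and 420 CPM in the HP age control, which overlap. In LP it had 422, 420 and 431 CPM in diapause and 336, 310 and 296 CPM in the age control, which do not.

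The cap-binding and helicase factors held both the only decreases and some of the larger increases. eIF4A (2L, 5981764 to 5985909), the RNA helicase that opens leaders, had 3391, 3203 and 3505 CPM in LP diapause and 1831, 1749 and 1632 CPM in LP age-control ovaries (log2 fold change 0.95, SE 0.06, adjusted p = 1.3e-11). In HP it had 3247, 3183 and 3357 CPM in diapause and 2126, 2257 and 2064 CPM in the age control (0.60, SE 0.06, adjusted p = 1.3e-08). eIF4H1, a helicase cofactor, was higher by 0.79 in LP and 0.63 in HP. The scaffold eIF4G1 (chromosome 4, 915297 to 930715) had 963, 980 and 1018 CPM in LP diapause and 760, 706 and 680 CPM in LP age-control ovaries (0.47), and was higher by 0.34 in HP. eIF4E1 (3L, 9399618 to 9402460), the main cap-binding protein, was higher in both lines. It had 938, 901 and 914 CPM in LP diapause and 780, 764 and 753 CPM in the LP age control (0.26, SE 0.05), and was higher by 0.39 in HP (SE 0.05). The call of eIF4E1 in LP was lost when libraries were scaled by their total counts (0.03, adjusted p = 0.47).

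The 2 genes that fell are paralogues of the cap-binding protein and the scaffold. eIF4EHP (3R, 24063077 to 24108960) binds the cap but not eIF4G, and is known as a repressor of specific messengers in the fly embryo. It had 88.2, 78.4 and 82.4 CPM in LP diapause and 108, 103 and 117 CPM in LP age-control ovaries. Its HP values were 96.6, 92.7 and 91.3 CPM in diapause and 109, 105 and 117 CPM in the age control. The log2 fold change was −0.40 in LP (SE 0.07, adjusted p = 1.5e-05) and −0.24 in HP (SE 0.07, adjusted p = 0.003), with no overlap in either line. eIF4G2 (3R, 23808285 to 23819237), a scaffold known for its need in male meiosis, had 102, 103 and 119 CPM in LP diapause and 150, 170 and 176 CPM in LP age-control ovaries (−0.62, SE 0.13, adjusted p = 0.00031). In HP it had 101, 86.2 and 108 CPM in diapause and 188, 125 and 185 CPM in the age control (−0.75, SE 0.13, adjusted p = 5.2e-05). HP age-control replicate 2 was nearest to the diapause libraries.

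The elongation factors rose in LP except for eEFSec and eEF1alpha2, which did not pass, so that 6 of 8 were higher, and 6 of 8 were higher in HP as well. eEF2 had 9373, 9888 and 10480 CPM in LP diapause and 6265, 5907 and 5292 CPM in LP age-control ovaries (log2 fold change 0.77, SE 0.06, adjusted p = 9e-10). HP libraries held 9536, 9119 and 9169 CPM in diapause and 7821, 7794 and 7507 CPM in the age control (0.27, SE 0.06, adjusted p = 0.00074). eEF5 (2R, 24057798 to 24059483) had 2420, 2525 and 2466 CPM in LP diapause and 1499, 1373 and 1240 CPM in the LP age control (0.85). It had 2034, 2223 and 2050 CPM in HP diapause and 1461, 1807 and 1477 CPM in the HP age control (0.41). The groups of both genes were separate in both lines, and the step was wider in LP. The most abundant factor, eEF1alpha1, had 17310, 17640 and 18490 CPM in LP diapause and 13340, 12460 and 11420 CPM in the LP age control (0.52, SE 0.06). Its change in HP was 0.23 (SE 0.06), and that call was lost with total-count scaling (0.09, adjusted p = 0.089). eEF1beta was higher in LP (0.54) and did not pass in HP (0.06).

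**Figure D3:**
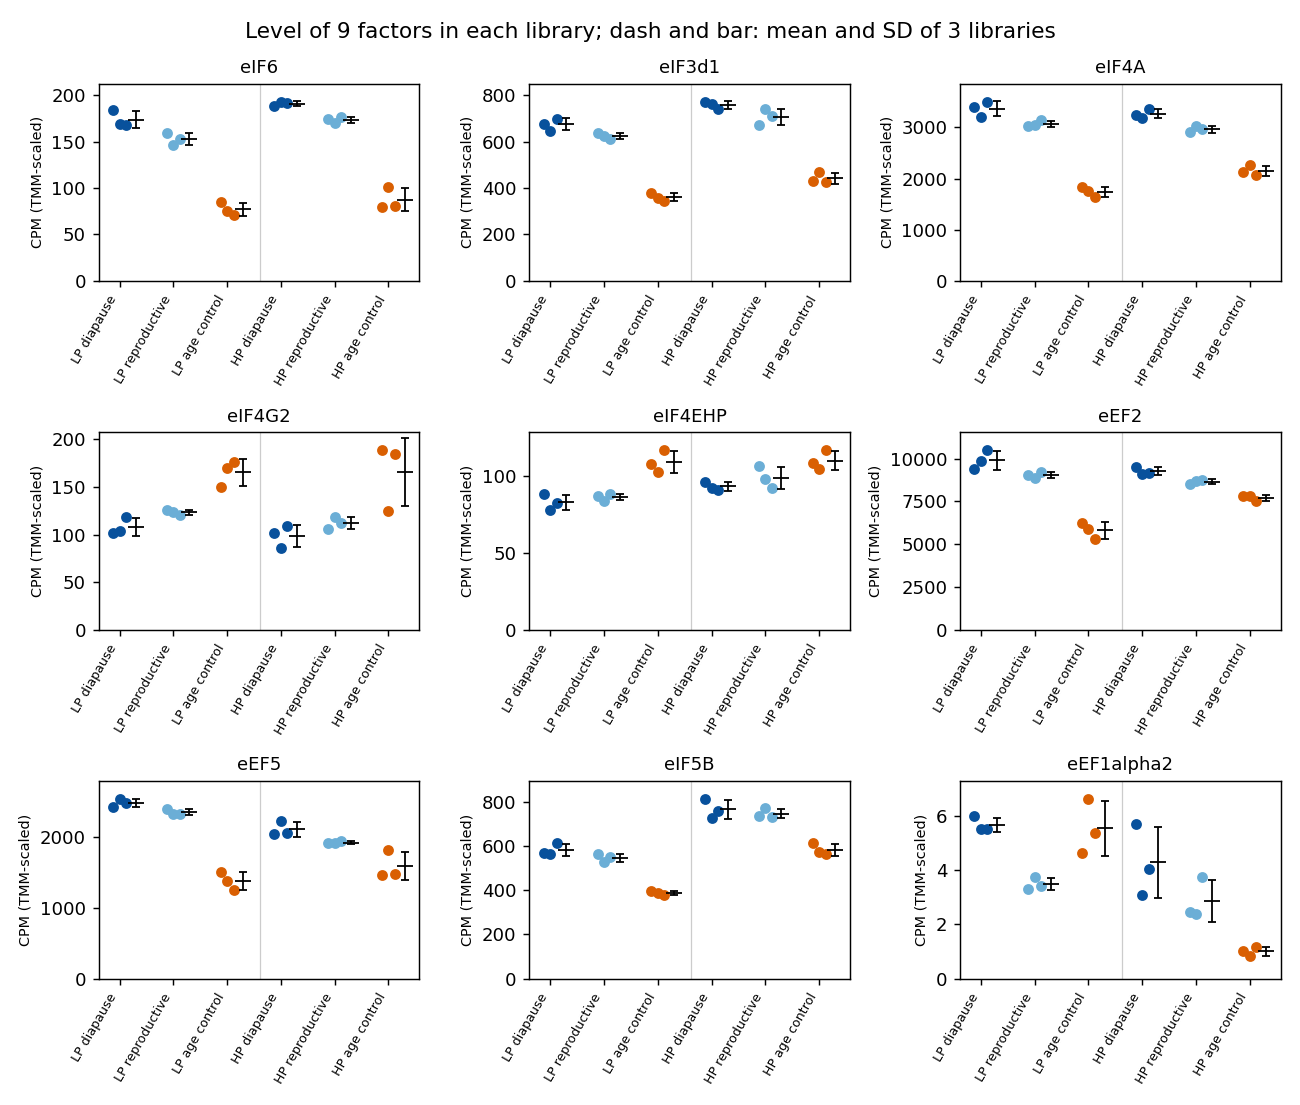
TMM-scaled CPM of 9 factors in each library (points, coloured by state), with the mean and SD of 3 libraries beside them; the grey line parts LP (left) from HP (right). eIF6, eIF3d1, eIF4A, eEF2 and eEF5 have their age-control libraries lowest, eIF4G2 has them highest, eIF4EHP has them highest in LP but overlapping with reproductive libraries in HP, eIF5B is lower in LP in each state, and eEF1alpha2 is at 0.827 to 1.17 CPM in the HP age control but at 4.60 to 6.60 CPM in the LP age control.

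Markers of other cells moved with the same comparison. All 12 muscle markers were tested, and 11 were higher in LP diapause and 10 in HP diapause than in the age control. Of the 7 follicle and escort cell markers tested, 7 were higher in LP and 6 in HP, and of the 7 haemocyte markers tested 3 and 5 were higher. Of the 18 eggshell genes 17 were lower in LP and 18 in HP. The germline list was mixed, with 5 higher and 2 lower of 7 in LP and 3 higher and 3 lower in HP, while of the 3 fat body genes tested 0 were lower in LP and 1 in HP. The part of these markers in the factors' change was not tested. Without LP age-control replicate 2, 39 factors were called in LP (37 higher, 2 lower), and without HP age-control replicate 2, in which ribosomal protein genes took 17% of the counts against 14.4% and 13.7% in the other replicates, 36 were called in HP. With total counts in place of TMM the median of all genes moved to −0.20 in LP and −0.13 in HP. Then 33 factors were higher and 3 lower in LP, and 27 higher and 4 lower in HP.

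Reproductive ovaries at 12 °C showed much of the same difference from the age control. In LP 38 of the 43 factors were higher and 3 lower in reproductive ovaries, and in HP 27 were higher and 2 lower. Over all genes 67.6% were called in LP (33.9% higher, 33.7% lower) and 65.3% in HP (32.2% higher, 33.1% lower). The libraries did not overlap for 42 factors in LP and 34 in HP, against 72.6% and 67.7% of all genes. The factors' medians were 0.42 in LP and 0.25 in HP, against 0.00 and 0.01 over all genes. These comparisons share the age-control libraries with those of diapause, so that their likeness is no separate evidence. eIF6 had 160, 147 and 153 CPM in LP reproductive and 174, 170 and 176 CPM in HP reproductive ovaries, all above the age-control values given before (log2 fold change 0.99 in both lines, SE 0.08). eIF3d1 was higher by 0.79 in LP and 0.68 in HP, eIF4A by 0.82 and 0.46, and eEF5 by 0.77 and 0.28. eIF4G2 was lower, with −0.42 in LP and −0.57 in HP. With total counts the HP split was 21 higher and 5 lower in place of 27 and 2, and without LP age-control replicate 2 the LP split was 36 and 2.

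A few calls in this comparison were weak. eEF2 in HP reproductive ovaries (8508, 8714 and 8750 CPM, against 7821, 7794 and 7507 CPM in the HP age control) had a log2 fold change of 0.17 with TMM (adjusted p = 0.023). With total counts it did not pass (0.06, adjusted p = 0.34), nor without HP reproductive replicate 2 or 3 or HP age-control replicate 3 (0.14 to 0.16). eIF4EHP in HP reproductive ovaries had 106, 98.0 and 92.3 CPM, which overlap the 109, 105 and 117 CPM of the HP age control (−0.16, adjusted p = 0.04). It did not pass with DESeq2 (adjusted p = 0.052), nor without HP reproductive replicate 2 or 3 or HP age-control replicate 1 or 3 (adjusted p between 0.051 and 0.17). In LP it was lower (−0.34, adjusted p = 0.00011), with 87.3, 84.1 and 88.3 CPM in reproductive ovaries.

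Diapause and reproductive ovaries, both from 12 °C, differed little in these genes. Within a line 0 of the 43 factors were called by edgeR in either LP or HP, where 1.45% and 0.852% of all genes were called. At an unadjusted p under 0.05 there were 6 in LP (14% of the 43, against 16.5% of all genes) and 10 in HP (23.3%, against 16.1%). DESeq2 called 1 in LP and 0 in HP, and edgeR fitted to only the libraries compared called 1 in LP and 6 in HP. The shares of all genes given here are those of the fit of all libraries by edgeR, not of these settings. Small differences leaned upward, with a median log2 fold change of 0.08 in LP and 0.09 in HP, against 0.01 and 0.00 over all genes. The value was positive in both lines for 32 factors and negative in both for 4. The libraries of the 2 states did not overlap for 28 factors in LP and 22 in HP, where 26.1% and 28.1% of all genes did not overlap. For the factors other than eEF1alpha2 and eIF5, the upper end of the 95% interval reached at most 0.37 in LP and 0.34 in HP on the log2 scale. Its lower end reached −0.47 in LP and −0.46 in HP, both for eIF4G2. A difference as large as that of eIF6 from the age control lay outside those intervals. The factors' median against the age control in HP, 0.33, lay just under the highest upper end in HP. That in LP, 0.54, lay above the highest upper end in LP.

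**Figure D4:**
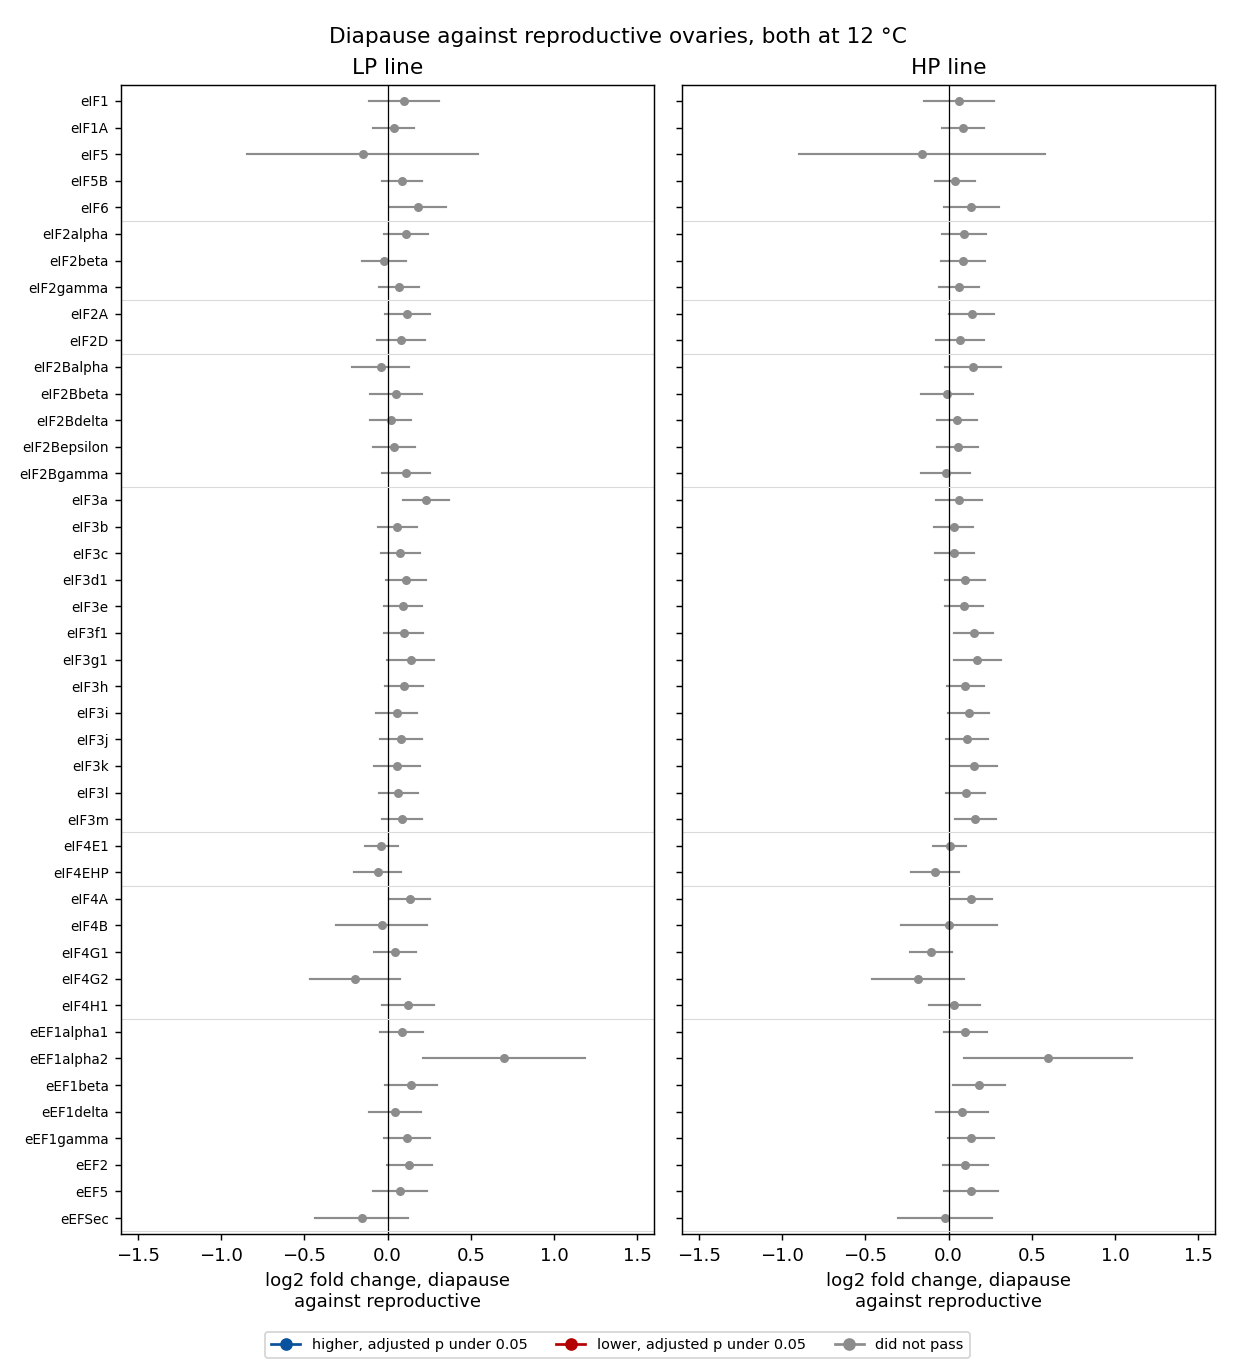
Log2 fold change of each tested factor in diapause against reproductive ovaries, both at 12 °C, in LP (left) and HP (right), with 95% intervals from the model; 0 factors passed an adjusted p of 0.05 in either line. Most points lie just right of 0, and the wide intervals belong to the low-count genes eIF5 and eEF1alpha2.

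With the 2 lines averaged, 6 of the 43 factors were called, all higher in diapause, where 9.46% of all genes were called (3.52% higher, 5.94% lower). eEF1alpha2 had a log2 fold change of 0.65 (SE 0.16, adjusted p = 0.017), eEF1beta 0.16 (SE 0.05, adjusted p = 0.049) and eIF3g1 0.16 (SE 0.05, adjusted p = 0.038). eIF3a had 0.15, eIF4A 0.14 and eIF3f1 0.12. These correspond to 1.57-fold for eEF1alpha2 and to between 1.09-fold and 1.12-fold for the others. eEF1beta had 1224, 1210 and 1216 CPM in LP diapause against 1069, 1124 and 1114 CPM in LP reproductive ovaries, and 1197, 1296 and 1251 CPM in HP diapause against 1090, 1109 and 1101 CPM in HP reproductive ovaries. Its diapause libraries lay above the reproductive ones in each line. eIF4A had 3018, 3046 and 3143 CPM in LP reproductive and 2901, 3033 and 2960 CPM in HP reproductive ovaries, each group below its diapause libraries. The count of 6 was sensitive. It was 1 with total counts or with no filter on low counts, 13 with DESeq2 and 22 with only the libraries compared. The 9.46% of all genes does not belong to these settings, so that the counts cannot be set against it. It was 0 without HP reproductive replicate 1, 2 without HP reproductive replicate 2, 4 without LP diapause replicate 2, and 1 when any one of the other 9 libraries was left out. Cytosolic ribosomal protein genes were called in 60 of 87 cases, all higher, with a median of 0.20. Of the muscle markers 9 of 12 were higher and of the eggshell genes 14 of 18 lower in the same comparison, and their part was not tested.

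The main cap-binding and scaffold genes did not pass between the 12 °C states. eIF4E1 had 938, 901 and 914 CPM in LP diapause against 952, 936 and 940 CPM in LP reproductive ovaries, and 957, 950 and 972 CPM in HP diapause against 948, 962 and 953 CPM in HP reproductive ovaries, with overlap in both lines. eIF4G1 had 963, 980 and 1018 CPM in LP diapause against 962, 911 and 999 CPM in LP reproductive ovaries, which overlap. In HP it had 938, 884 and 882 CPM in diapause against 965, 966 and 976 CPM in reproductive ovaries, the lower values being in diapause (log2 fold change −0.10, not called). eEF2 had 9046, 8892 and 9205 CPM in LP reproductive ovaries, all under the LP diapause values (0.13, not called).

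Between the lines 17 of the 43 factors were called in diapause, 13 in reproductive and 29 in age-control ovaries, most of them lower in LP. In diapause 2 of 43 factors were higher and 15 lower in LP than in HP, where 32.6% of all genes were called (17.4% higher, 15.2% lower). In reproductive ovaries 2 were higher and 11 lower (35.1% of all genes called; 18.4% higher, 16.7% lower). In the age control 2 were higher and 27 lower (41.9% of all genes called; 19.9% higher, 21.9% lower), with a median log2 fold change of −0.29. In the same comparison 11 of the 12 muscle markers were higher and 1 lower in LP, and 6 of the 18 eggshell genes were higher. Of the 7 germline markers 1 was higher and 4 lower, of the 7 follicle and escort cell markers 4 were lower, of the 7 haemocyte markers 2 were higher and 3 lower, and of the 3 fat body genes 1 was lower. At 12 °C, 7 of the 18 eggshell genes were higher in LP in diapause and 10 in reproductive ovaries. Of the muscle markers 1 was higher and 2 lower in diapause, and 1 higher and 3 lower in reproductive ovaries. Of the germline markers 2 were higher and 1 lower in each of these states. The follicle and escort cell list had 1 lower in diapause and 1 higher and 1 lower in reproductive ovaries. Of the haemocyte markers 1 and 2 were lower, and of the fat body genes 1 in each. The part of these markers was not tested. The lines did not overlap for 23 factors in diapause, 28 in reproductive and 27 in age-control ovaries, against 46.4%, 53.8% and 46.2% of all genes. Ribosomal protein genes had the same direction in the age control, with 83 of 87 lower and 1 higher in LP, but at 12 °C 3 were higher and 6 lower in diapause and 8 higher and 6 lower in reproductive ovaries. Without LP age-control replicate 2, 1 factor was higher and 25 lower in the age control. Without LP diapause replicate 2, 7 factors in place of 17 were called in diapause, and without HP diapause replicate 1 or 3 it was 10.

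For 9 of the 43 factors the lines differed with 1 sign in every state, where 15.1% of all genes did (7.87% higher in LP, 7.26% lower). In LP 8 were lower throughout, eIF2A, eIF2Bepsilon, eIF2D, eIF3d1, eIF3g1, eIF3k, eIF4H1 and eIF5B, and 1, eIF4B, was higher throughout. With each of the 18 libraries left out in turn, 4 of the 9, eIF2Bepsilon, eIF2D, eIF3k and eIF5B, kept their calls in all 3 states each time. Without LP diapause replicate 2, eIF2A, eIF3d1 and eIF4H1 were lost, and without HP reproductive replicate 2, eIF2A, eIF3d1 and eIF3g1 were lost. eIF5B (3L, 3428658 to 3460977), the GTPase of subunit joining, had 566, 565 and 612 CPM in LP diapause and 810, 726 and 756 CPM in HP diapause. In reproductive ovaries it had 564, 527 and 547 CPM in LP and 734, 769 and 732 CPM in HP, and in the age control 397, 388 and 380 CPM in LP and 612, 574 and 561 CPM in HP. The lines did not overlap in any state (log2 fold change −0.40, −0.45 and −0.58, SE 0.05 or 0.06, adjusted p = 1.3e-05, 2.7e-06 and 5.5e-08). eIF2D had log2 fold changes of −0.29 in diapause, −0.31 in reproductive and −0.47 in age-control ovaries, all lower in LP. eIF4B had 10.2, 10.4 and 9.47 CPM in LP diapause against 7.96, 7.95 and 5.98 CPM in HP diapause (0.46, adjusted p = 0.009), 0.50 in reproductive ovaries (adjusted p = 0.0046) and 0.35 in the age control (adjusted p = 0.03). The call in diapause was lost without HP diapause replicate 3 (0.33, adjusted p = 0.077), and that in the age control without HP age-control replicate 1 or 3 or LP age-control replicate 2 or 3 (adjusted p between 0.067 and 0.13).

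The difference of eEF5 between the lines had opposite signs in the age control and in the other states. Its calls in diapause and in the age control depended on single libraries. eEF5 was higher in LP in diapause (0.23, adjusted p = 0.022) and in reproductive ovaries (0.29, adjusted p = 0.0052). It was lower in LP in the age control (−0.21, adjusted p = 0.033). In reproductive ovaries it had 2390, 2316 and 2323 CPM in LP and 1904, 1904 and 1936 CPM in HP, with no overlap. In the age control the 1499 CPM of LP replicate 1 exceeded 2 of the HP replicates, and without HP age-control replicate 2 the value was −0.11 (adjusted p = 0.16). That call was also lost with total counts (−0.12) and without LP age-control replicate 2 or 3, and the call in diapause was lost without HP diapause replicate 1 or 3 or LP diapause replicate 2 or 3 (0.20 to 0.23).

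The difference from the age control had a different size in the 2 lines for a minority of the factors. In diapause against age control 16 of 43 factors had a higher and 2 a lower log2 fold change in LP than in HP by the test of the difference itself, where 18.4% of all genes passed (11.1% higher, 7.26% lower). In reproductive against age control 16 were higher and 1 lower (16.6% of all genes; 9.69% higher, 6.92% lower). The differences were largest for eEF2 (0.50, SE 0.09), eEF1beta (0.48, SE 0.10), eIF3e (0.45, SE 0.07), eEF5 (0.44, SE 0.11) and eIF3h (0.42, SE 0.07) among those higher in LP in diapause against age control. eIF3h shares 16.8% of its exonic bases with another gene. eEF1alpha2 (−2.06) and eIF2Bdelta (−0.26) went the other way. The call of eIF2Bdelta was lost without LP age-control replicate 1 or 2, LP diapause replicate 2 or 3, HP age-control replicate 1 or 3 or HP diapause replicate 1 or 3 (−0.26 to −0.22, adjusted p between 0.051 and 0.084). Without LP age-control replicate 2 the counts were 14 higher and 1 lower, and 13 higher and 1 lower. In diapause against reproductive ovaries 0 factors differed between the lines by edgeR, 0 at an unadjusted p under 0.05 and 0 by DESeq2. Over all 9037 genes 0 were called by edgeR in that test, and 366 had an unadjusted p under 0.05. Of 87 ribosomal protein genes 67 were higher in LP by the same test in diapause against age control and 69 in reproductive against age control. Markers of cell types passed it as well in diapause against age control, with 6 of 7 germline and 3 of 7 follicle and escort cell markers higher in LP, 1 of 12 muscle markers higher and 10 lower, and 2 of 7 haemocyte markers higher and 2 lower. In reproductive against age control 5 germline and 4 follicle and escort cell markers were higher in LP, 1 muscle marker was higher and 10 were lower, and 1 haemocyte marker was higher and 2 were lower. The part of these markers in the factors' difference was not tested.

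eEF1alpha1 and eEF1alpha2 (3R, 31738468 to 31743306) code for closely related forms of the factor, and in mammals the second form is that of muscle and neurons. eEF1alpha2 held between 0.00437% and 0.0491% of the pair's summed RPKM. It had 5.97, 5.50 and 5.50 CPM in LP diapause, 3.29, 3.73 and 3.40 CPM in LP reproductive and 4.60, 6.60 and 5.37 CPM in LP age-control ovaries. HP ovaries had 5.68, 3.09 and 4.05 CPM in diapause, 2.45, 2.37 and 3.73 CPM in reproductive and 1.00, 0.827 and 1.17 CPM in age-control ovaries. The HP age control was thus lowest of the 6 groups, and the LP age control lay above LP reproductive ovaries and overlapped LP diapause ovaries. The log2 fold change of diapause against age control was 2.10 in HP (SE 0.26, adjusted p = 3.7e-07) and 0.03 in LP (not called). That of reproductive against age control was 1.5 in HP (adjusted p = 3.8e-05) and −0.67 in LP (adjusted p = 0.012), and the LP call was lost without LP age-control replicate 2 (−0.53, adjusted p = 0.062). It was the only factor with calls in opposite directions in the 2 lines. In the age control it was higher in LP by 2.46 (SE 0.25, adjusted p = 1.4e-07), and by 2.31 without LP age-control replicate 2 (adjusted p = 1.7e-06).

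Muscle markers moved in part with eEF1alpha2. Their summed level was 1710 ± 172, 1280 ± 177 and 1120 ± 126 CPM in LP diapause, reproductive and age-control ovaries, and 1890 ± 86.2, 1550 ± 57.1 and 701 ± 48.1 CPM in HP (SD, n = 3 each). In the age control 11 of the 12 were higher and 1 lower in LP than in HP. Their part in the level of eEF1alpha2 was not tested. The call over both lines in diapause against reproductive ovaries was lost without HP diapause replicate 1 (0.52, adjusted p = 0.057) or HP reproductive replicate 1 (0.60, adjusted p = 0.056).

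The 9 factors that were not tested had few counts, with 1 exception among the libraries. Most are duplicates of ovary-expressed factors, and eIF4E3 is known for its need in spermatogenesis. Together they had 3 to 30 counts in each of 17 libraries and 187 counts in LP age-control replicate 2. In that library eIF4E3 had 53 counts, eIF4E5 48, eIF4E7 31 and eIF4H2 27, and 7 of the 9 genes had their highest count there. eIF4E4 had 1 count in all 18 libraries, and eIF4E6 had its highest count, 16, in LP age-control replicate 3. For a gene at 0 in a library, the floor of 3 counts allows up to 0.0936 RPKM for eIF3d2 and up to 0.203 RPKM for eIF4E4, for counting error only. Genes of late male germ cells, a list of 7 that was chosen after the data were seen (among them dj, Mst87F and Mst77F), summed to 378 counts in LP age-control replicate 2, to 44 and 16 counts in LP age-control replicates 1 and 3, and to at most 5 counts in each of the other 15 libraries. The same library had 9773 genes with at least 5 counts, against 8687 to 9258 in the other 17.

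**Figure D5:**
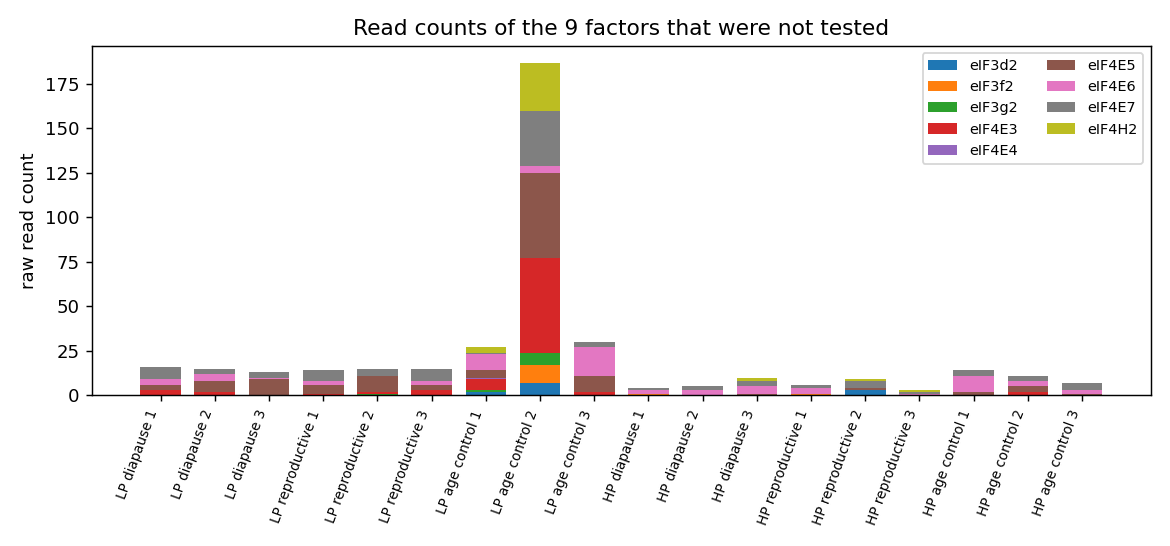
Raw read counts of the 9 factors that were not tested, stacked by gene, in each of the 18 libraries. LP age-control replicate 2 has 187 counts in all, and each of the other 17 libraries has 3 to 30.

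Other genes of the translation machinery followed the factors in part. Of the 6 genes of termination, recycling and poly(A) binding, 4 were higher and 1 lower in diapause than in age-control ovaries in each line. The poly(A)-binding protein gene pAbp had 5040 ± 241 CPM in LP diapause and 2720 ± 355 CPM in LP age-control ovaries (SD, n = 3 each; log2 fold change 0.89, adjusted p = 1.3e-09), and 6170 ± 293 CPM in HP diapause and 4150 ± 109 CPM in the HP age control (0.57, adjusted p = 8.2e-07). pix, the ribosome recycling ATPase, was higher by 0.82 in LP and 0.28 in HP, and Paip2, which keeps pAbp from the messenger, was lower (−0.50 and −0.39). Of the 5 tested regulators of eIF4E and eIF4G, 2 were higher in each line and 0 in LP and 2 in HP lower. Thor, the eIF4E-binding protein that sequesters the cap-binding factor, had 80.3 ± 5.08 CPM in LP diapause and 48.6 ± 3.89 CPM in LP age-control ovaries (0.72, adjusted p = 0.00064), and 108 ± 13.9 CPM in HP diapause and 69.5 ± 18.2 CPM in the HP age control (0.64, adjusted p = 0.0016). cup, another eIF4E-binding protein, is listed at 0 in every library, and all of its 4306 exonic bases are shared with CG34310 and cort. pAbp and Thor were not called in diapause against reproductive ovaries in either line or over both.

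Genes that control the phosphorylation of eIF2alpha went the other way. Of the 4 tested genes of the eIF2 kinase and stress response list, 3 were lower in diapause than in age-control ovaries in each line. These were the kinase genes Gcn2 (−0.48 in LP, −0.42 in HP) and PEK (−0.48 and −0.52) and the phosphatase subunit gene PPP1R15 (−0.33 and −0.37), which reverses their action. The fourth, crc, the fly ATF4, was called higher in LP alone (0.12, against 0.01 in HP). Sesn was not tested. Of the 4 scanning and reinitiation cofactors, 3 were higher and 1 lower in LP and 3 higher in HP, led by the helicase bel (0.75 and 0.76). Of the 4 hypusine and diphthamide enzymes, 4 were higher in LP and 3 in HP. nero, which completes the hypusine of eEF5, was higher by 0.61 in LP and 0.62 in HP. Among the 9 mitochondrial translation factors 6 were higher and 2 lower in LP and 3 higher and 2 lower in HP. mEFTu2 was higher (1.11 in LP, 0.58 in HP) and the release factor mRF1 lower (−0.97 and −1.14).

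In diapause against reproductive ovaries over both lines, these lists gave few calls. mEFTu2 was higher (0.18), and the translational repressors Fmr1 (−0.12) and me31B (−0.13) and the mitochondrial initiation factor mIF3 (−0.22) were lower.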

How the data were processed

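Per the labels' protocols, directional libraries were made from poly(A)-selected ovary RNA. STAR, featureCounts, Trimmomatic and DESeq2 are listed, without versions, in the submitters' processing notes. Not given in the sources used here are the genome build, the strand setting and the handling of multiply matching reads. Raw counts as deposited by the authors make up the table, per gene for 18 libraries, with gene coordinates and merged exon lengths per the file headers. Of its 17611 gene identifiers 17556 were matched to a symbol in Ensembl's BDGP6.54 annotation, 17540 with the same chromosome, start and end, as were all 52 factors, and coordinates are those of the table.

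Counts were tested with edgeR 4.0.16 (robust quasi-likelihood F test, TMM scaling, filterByExpr) in R 4.3.3 with limma 3.58.1. All 18 libraries entered 1 fit with a mean per group (common biological coefficient of variation 0.0973, with 12 residual degrees of freedom). Every adjusted p is from this test unless another is named, with Benjamini-Hochberg adjustment over the 9037 genes kept and a threshold of 0.05, in each of 13 comparisons. Fold changes are given as log2, standard errors were computed from the F statistic, and intervals are at 95%. The intervals use a t quantile with 12 degrees of freedom, which are not those of the F test. An interval can thus reach 0 where the unadjusted p is just under 0.05. CPM are TMM-scaled and compare libraries. RPKM divide them by exon length and compare genes. A count of 0 allows up to 3 counts, and these floors cover counting error only. The standard errors and intervals come from the fit, which includes the spread between the libraries within groups. The procedure was tested on simulated counts in which a small part of the genes differed, equally in both directions, in HP diapause alone. That setting does not cover comparisons in which most genes differ, such as those with the age control.

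Alternatives were the size factors of DESeq2, total counts, no filter, DESeq2 1.42.0, only the libraries compared, a replicate block and leaving out each library. Factors named with a fold change were drawn, not all in every comparison, from the 5 called factors that rose most and the 5 that fell most among those with separate groups, and from eIF2alpha, eIF4A, eIF4E1, eIF4EHP, eIF4G1, eIF6, eEF1alpha1, eEF1alpha2, eEF2 and eEF5. Other factors given with a fold change were chosen after their values were seen. The factors, the gene lists and the rule were chosen with earlier results of these data known. The list of late male germ cell genes was chosen after these data were seen. Sequences were not used here.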

Additional observations from a re-analysis of the deposited data

Results flagged for a closer look

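The factors below are those whose difference from the age control was not the same in LP and HP by the test of the difference itself. Each value is the log2 fold change in LP minus that in HP. Both sets of values use the age-control libraries of both lines, so that they are not separate evidence.

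In diapause against age control 16 factors had the higher value in LP. Among the eIF3 subunits the difference was eIF3e 0.45, eIF3h 0.42, eIF3l 0.42, eIF3m 0.36, eIF3f1 0.34, eIF3a 0.30 and eIF3b 0.24. Among the initiator tRNA factors it was eIF2A 0.35, eIF2alpha 0.33 and eIF2gamma 0.26, and for the helicase eIF4A it was 0.35. Among the elongation factors it was eEF2 0.50, eEF1beta 0.48, eEF5 0.44, eEF1gamma 0.36 and eEF1alpha1 0.29. The 2 factors with the lower value in LP were eIF2Bdelta at −0.26 and eEF1alpha2 at −2.06.

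In reproductive against age control 16 factors again had the higher value in LP. Among the eIF3 subunits the difference was eIF3l 0.46, eIF3e 0.45, eIF3m 0.43, eIF3h 0.42, eIF3f1 0.40, eIF3k 0.27 and eIF3i 0.27. Among the initiator tRNA factors it was eIF2A 0.37, eIF2alpha 0.31 and eIF2gamma 0.25, and for eIF4A it was 0.36. Among the elongation factors it was eEF1beta 0.52, eEF5 0.50, eEF2 0.47, eEF1gamma 0.38 and eEF1alpha1 0.30. Only eEF1alpha2 had the lower value in LP, at −2.17. Groups of 3 libraries were too small for a test of single libraries that stand apart.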

How the results depend on the processing

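No call of a named factor changed direction under any alternative run. The direction of factors that were not called was not followed. The counts that moved by over 1.5 times were mostly those of diapause against reproductive ovaries. Over both lines the 6 factors became 1 with total counts, 1 with no filter, 13 with DESeq2 and 22 (21 higher, 1 lower) with only the libraries compared. In LP the 0 became 1 with DESeq2 and 1 with only the libraries compared, and in HP it became 6 with only the libraries compared. With that last setting, 23 in place of 13 factors differed between LP and HP in reproductive ovaries, and 11 in place of 18 differed between the lines in their fold change of diapause against age control. The cause was not tested. Shares of all genes are given for the fit of all 18 libraries with TMM only, so that counts under other settings have no such share beside them.

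Leaving out 1 library at a time gave 39 to 41 calls in LP and 32 to 36 in HP for diapause against age control, and 38 to 41 in LP and 25 to 31 in HP for reproductive against age control. It gave 0 to 0 for diapause against reproductive ovaries in each line and 0 to 4 over both. Between LP and HP it gave 7 to 15 calls in diapause, 9 to 12 in reproductive ovaries and 26 to 32 in the age control. For the difference between the lines in these fold changes it gave 13 to 20 in diapause against age control, 14 to 18 in reproductive against age control and 0 to 0 in diapause against reproductive ovaries. Of the named factors' calls across the leave-one-out fits 682 were kept and 92 lost, and calls were lost in 10 cases with total counts, 7 with no filter, 7 with only the libraries compared, 2 with the size factors of DESeq2, 2 with the replicate block and 1 with DESeq2.

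The labels do not say what libraries with the same replicate number share. The correlations of same-numbered libraries' deviations lay between −0.137 and 0.164, and such low values cannot exclude a pairing. With the replicate number as a block 4 factors in place of 6 were called in diapause against reproductive ovaries over both lines, and 40 in LP and 35 in HP in diapause against age control. Total-count scaling moved the median of all genes by over 0.1 (log2) in 3 comparisons, to −0.20 and −0.19 in LP and −0.13 in HP, so that small fold changes against the age control depend on the scaling. Low counts limit the 9 untested factors and eEF1alpha2.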
